A study of Mus musculus with 7 samples.

Results

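The 10 histone variant genes H2afz, H2afv, H2afx, H2afy, H2afy2, H2afj, H3f3a, H3f3b, H1f0 and Cenpa were examined for chromatin accessibility in young and aged mouse liver. Their regions were all deposited rows that overlapped the gene body or the 10 kb on either side, with genes taken from the GENCODE M21 annotation of GRCm38. This rule gave 28 of the 55680 regions measured. ATAC-seq, in which the Tn5 transposase inserts adapters into open chromatin, was performed on liver tissue of male C57BL/6N mice without a genetic or drug treatment. There were 3 young libraries (3 months) and 4 aged libraries (18 months). The aged libraries came from 3 animals, since different lobules of 1 liver were taken as separate replicates, and the labels do not say which libraries share that animal. The question was whether accessibility at these genes differed with age.

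Most histones are made in S phase from clustered, replication-dependent genes without introns, whose products package newly copied DNA. Many variant histones are made from single genes outside S phase too, although Cenpa and H2afx are also tied to the cell cycle, and they replace the standard forms at particular places, with the help of dedicated chaperones. In a tissue such as liver, where most hepatocytes rarely divide, they are a source of new histone protein outside S phase. H2afz and H2afv encode H2A.Z.1 and H2A.Z.2, which mark nucleosomes around promoters. H2afx encodes H2A.X, which is phosphorylated around DNA breaks. H2afy and H2afy2 encode the macroH2A proteins, associated with repressed chromatin, and H2afj encodes H2A.J. H3f3a and H3f3b encode the same H3.3 protein, the replacement form of H3. H1f0 encodes the linker histone H1.0 of non-dividing cells, and Cenpa encodes the H3 variant of the centromere.

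Counts in the regions summed to between 4474652 and 25461110 per library, and the regions of the variant genes held 0.0930% to 0.103% of them. Values are given as counts per 1000000 counts (CPM) after TMM scaling, and fold changes are aged over young on the log2 scale. Liver is a mixture of cells, so that fewer cells of a type and less signal per cell cannot be told apart. Among promoters of marker genes, those of all 8 hepatocyte markers were accessible, and their summed level was 692 to 774 CPM in young and 843 to 990 CPM in aged libraries. A promoter region was found for 1 of 6 Kupffer cell and macrophage markers and for 0 of 8 lymphocyte markers. It was found for 3 of 6 markers of sinusoidal endothelium, 3 of 6 of stellate cells and 3 of 5 of cholangiocytes. The summed level of the stellate promoters was 26.6 to 29.1 CPM in young and 16.1 to 23.5 CPM in aged libraries. The part of cell composition in the differences at the variant genes was not tested.

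Promoter sequences are shown for both H2A.Z and both H3.3 genes, which are pairs encoding like proteins, for H2afy, whose promoter alone had a negative fold change, for Cenpa, and for the replication-dependent gene Hist1h3i as a contrast. Each is the RefSeq window from 250 bases before to 50 bases after the gene's start on GRCm38.p6, printed 5′ to 3′ on the strand of the gene. Capitals mark matches on either strand to CCAAT (bound by NF-Y), TATAAA (the TATA box), GGGCGG (the GC box), CACGTG (the E-box) and TGACGTCA (the cAMP response element), and matches that overlap run together.
H2afz, chr3:137864237-137864536, plus strand: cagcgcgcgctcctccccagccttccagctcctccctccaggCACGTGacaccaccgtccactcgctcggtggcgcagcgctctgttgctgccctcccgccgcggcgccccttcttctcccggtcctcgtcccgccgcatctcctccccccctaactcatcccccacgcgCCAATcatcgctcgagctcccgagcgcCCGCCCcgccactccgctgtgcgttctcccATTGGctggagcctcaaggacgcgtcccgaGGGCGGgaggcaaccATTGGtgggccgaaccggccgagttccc
H2afv, chr11:6444394-6444693, minus strand: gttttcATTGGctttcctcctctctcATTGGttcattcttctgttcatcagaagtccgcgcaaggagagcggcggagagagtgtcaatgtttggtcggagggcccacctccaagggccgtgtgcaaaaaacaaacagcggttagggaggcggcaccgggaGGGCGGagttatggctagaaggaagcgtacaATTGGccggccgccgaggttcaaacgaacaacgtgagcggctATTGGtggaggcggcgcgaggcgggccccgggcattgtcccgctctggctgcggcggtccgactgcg
H3f3a, chr1:180813556-180813855, minus strand: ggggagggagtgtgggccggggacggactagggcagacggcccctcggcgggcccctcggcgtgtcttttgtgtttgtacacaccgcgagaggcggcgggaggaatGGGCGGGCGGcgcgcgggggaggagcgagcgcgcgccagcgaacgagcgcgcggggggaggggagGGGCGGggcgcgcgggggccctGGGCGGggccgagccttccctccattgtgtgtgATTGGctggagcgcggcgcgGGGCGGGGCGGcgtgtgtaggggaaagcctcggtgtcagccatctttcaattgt
H3f3b, chr11:116024455-116024754, minus strand: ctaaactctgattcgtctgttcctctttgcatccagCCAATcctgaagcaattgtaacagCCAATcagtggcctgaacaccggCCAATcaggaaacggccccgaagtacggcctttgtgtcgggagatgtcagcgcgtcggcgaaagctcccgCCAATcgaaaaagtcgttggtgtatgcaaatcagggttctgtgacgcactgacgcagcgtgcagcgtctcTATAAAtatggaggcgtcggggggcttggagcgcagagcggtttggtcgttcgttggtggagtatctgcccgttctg
H2afy, chr13:56135501-56135800, minus strand: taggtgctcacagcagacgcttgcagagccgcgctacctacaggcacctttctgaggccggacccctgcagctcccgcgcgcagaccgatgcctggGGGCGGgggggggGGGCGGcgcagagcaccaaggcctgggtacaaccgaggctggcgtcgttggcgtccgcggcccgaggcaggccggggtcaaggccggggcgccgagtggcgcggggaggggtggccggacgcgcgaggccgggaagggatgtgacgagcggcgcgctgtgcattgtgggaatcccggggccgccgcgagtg
Cenpa, chr5:30666636-30666935, plus strand: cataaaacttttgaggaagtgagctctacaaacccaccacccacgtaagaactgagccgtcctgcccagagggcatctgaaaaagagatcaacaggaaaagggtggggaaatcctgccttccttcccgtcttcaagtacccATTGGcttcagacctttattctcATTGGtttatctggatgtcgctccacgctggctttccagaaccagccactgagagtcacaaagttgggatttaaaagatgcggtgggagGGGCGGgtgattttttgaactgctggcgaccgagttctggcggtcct
Hist1h3i, chr13:21783348-21783647, minus strand: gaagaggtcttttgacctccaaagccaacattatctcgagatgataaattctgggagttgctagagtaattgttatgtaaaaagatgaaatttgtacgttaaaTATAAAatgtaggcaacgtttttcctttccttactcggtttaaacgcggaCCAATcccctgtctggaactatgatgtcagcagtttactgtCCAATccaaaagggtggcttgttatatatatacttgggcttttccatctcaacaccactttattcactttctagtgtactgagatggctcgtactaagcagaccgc

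The windows of the H3.3 genes were unlike each other. That of H3f3a held 6 GC boxes, among them overlapping matches 144 and 140 bases before the start and again across the start, and 1 CCAAT, with a GC content of 74.0%. That of H3f3b held 4 CCAAT and a TATA box 27 bases before the start, no GC box, and a GC content of 55%. The H2A.Z windows both held CCAAT, with 3 matches in H2afz and 4 in H2afv, and H2afz also held an E-box. Windows were found for 9 of the 10 variant genes and for 62 of 67 replication-dependent histone genes, the latter with 63 windows. CCAAT stood in 7 of 9 variant windows (77.8%), in 54 of 63 replication-dependent windows (85.7%) and in 37.4% of all 32851 windows. The TATA box stood in 1 of 9 (11.1%), 35 of 63 (55.6%) and 13.6% of these. The GC box stood in 7 of 9 (77.8%), 24 of 63 (38.1%) and 35.7%. None of these shares was tested. The E-box stood in 1 of 9 variant windows, in 0 of 63 replication-dependent windows and in 7.15% of all windows, and the cAMP response element in 0, 4 and 1.79%. Median GC content was 65.7% in variant, 45.3% in replication-dependent and 52.7% in all windows, and the median number of CpG sites was 27, 11 and 7. These are matches of letters and were not tested as binding sites.

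A region overlapping the 200 bp on either side of a transcription start was called a promoter region. Of the 10 members, 9 had one, and H2afy2 had none. The strongest promoter region of each of these 9 genes is described first. None passed an adjusted p of 0.05 in edgeR's quasi-likelihood test with Benjamini-Hochberg adjustment over all regions (0 higher and 0 lower of 9), against 4.48% higher and 2.06% lower among all 15422 promoter regions. The log2 fold change was above 0 at 8 of 9, as at 61.1% of all promoter regions. Of the 9, 5 had an unadjusted p under 0.05, as did 4949 of the 15422, with a median of 0.24 against 0.094 over all promoter regions. At 5 of the 9 promoters every aged library lay above every young one, as it did at 20.4% of all promoter regions.

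H2afz and H2afv, the H2A.Z genes, were more open on average at their promoters in aged liver, with overlapping groups. At the H2afz promoter (chr3:137863999-137865801), whose region also holds a start of Gm43403, the young libraries gave 64.1, 69.0 and 54.6 CPM and the aged libraries 74.0, 63.5, 72.1 and 83.0 CPM. Aged replicate 2 lay within the young range and the other aged libraries above it. The means were 62.6 ± 7.32 CPM (SD, n = 3) and 73.2 ± 7.97 CPM (SD, n = 4), and the log2 fold change of 0.22 (SE 0.12) had an edgeR adjusted p of 0.281 and turned to -0.045 with offsets fitted on region strength.

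At the H2afv promoter (chr11:6443566-6444868) the values were 49.7, 56.7 and 37.3 CPM in young and 68.2, 53.7, 57.7 and 78.9 CPM in aged libraries. The groups again overlapped through aged replicate 2, and young replicate 3 was the lowest library at both genes. The log2 fold change of 0.42 (SE 0.16) was the largest among the 9 promoters, and its edgeR adjusted p was 0.117. With offsets fitted on GC content it was 0.49 with an adjusted p of 0.0446, and with offsets fitted on region strength 0.19 with an adjusted p of 0.552. Per kb of region, the ratio of H2afv to H2afz averaged 1.05 ± 0.0975 in the young libraries (SD, n = 3) and 1.22 ± 0.0960 in the aged ones (SD, n = 4), a descriptive value from the same 2 regions.

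H2afx, a single-exon gene, stood apart from its young values in all 4 aged libraries. Its promoter region (chr9:44334295-44335909) covers its transcription start and also those of Gm48853 and Gm44335. It gave 69.0, 67.8 and 74.5 CPM in young and 87.2, 80.4, 86.1 and 94.7 CPM in aged libraries. The means were 70.4 ± 3.57 CPM (SD, n = 3) and 87.1 ± 5.87 CPM (SD, n = 4). The log2 fold change was 0.31 (SE 0.11) with an edgeR adjusted p of 0.0920. It passed with DESeq2 (log2 fold change 0.34, adjusted p 0.0471) and in no other alternative fit, and with offsets fitted on region strength it was 0.018 (adjusted p 0.954).

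The macroH2A genes did not share this direction. At the H2afy promoter (chr13:56134642-56136007) the young libraries gave 32, 30.0 and 24.8 CPM and the aged libraries 27.6, 26.9, 25.4 and 27.0 CPM. All aged values lay inside the young range. The means of 29.0 ± 3.72 CPM (SD, n = 3) and 26.7 ± 0.906 CPM (SD, n = 4) gave a log2 fold change of -0.12 (SE 0.13, edgeR adjusted p 0.603), the only one of the 9 below 0.

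H2afy2 had no promoter region, and its RefSeq promoter window overlapped none of the deposited regions. A weak exonic region 32115 bp after its start (chr10:61751822-61752242) held 10 to 110 counts per library and gave 5.0, 4.16 and 3.29 CPM in young and 2.64, 1.96, 4.20 and 3.82 CPM in aged libraries. Aged replicates 1 and 2 lay below the young range and the others within it (log2 fold change -0.43, SE 0.30, edgeR adjusted p 0.406). A region after the gene's end, inside Aifm2, had a log2 fold change of -0.13 (SE 0.23).

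H2afj, the gene of H2A.J, was narrowly separated by age at its promoter. Its promoter region (chr6:136807991-136808948), which also holds a start of Gm44364, gave 43.7, 36.0 and 37.7 CPM in young and 43.8, 45.9, 45.8 and 44.5 CPM in aged libraries. The aged libraries lay above the young ones by a margin smaller than the spread within the young group. The means were 39.1 ± 4.04 CPM (SD, n = 3) and 45.0 ± 1.02 CPM (SD, n = 4), with a log2 fold change of 0.20 (SE 0.11) and an edgeR adjusted p of 0.290. With offsets fitted on region strength it was 0.011 (adjusted p 0.975).

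**Figure D1:**
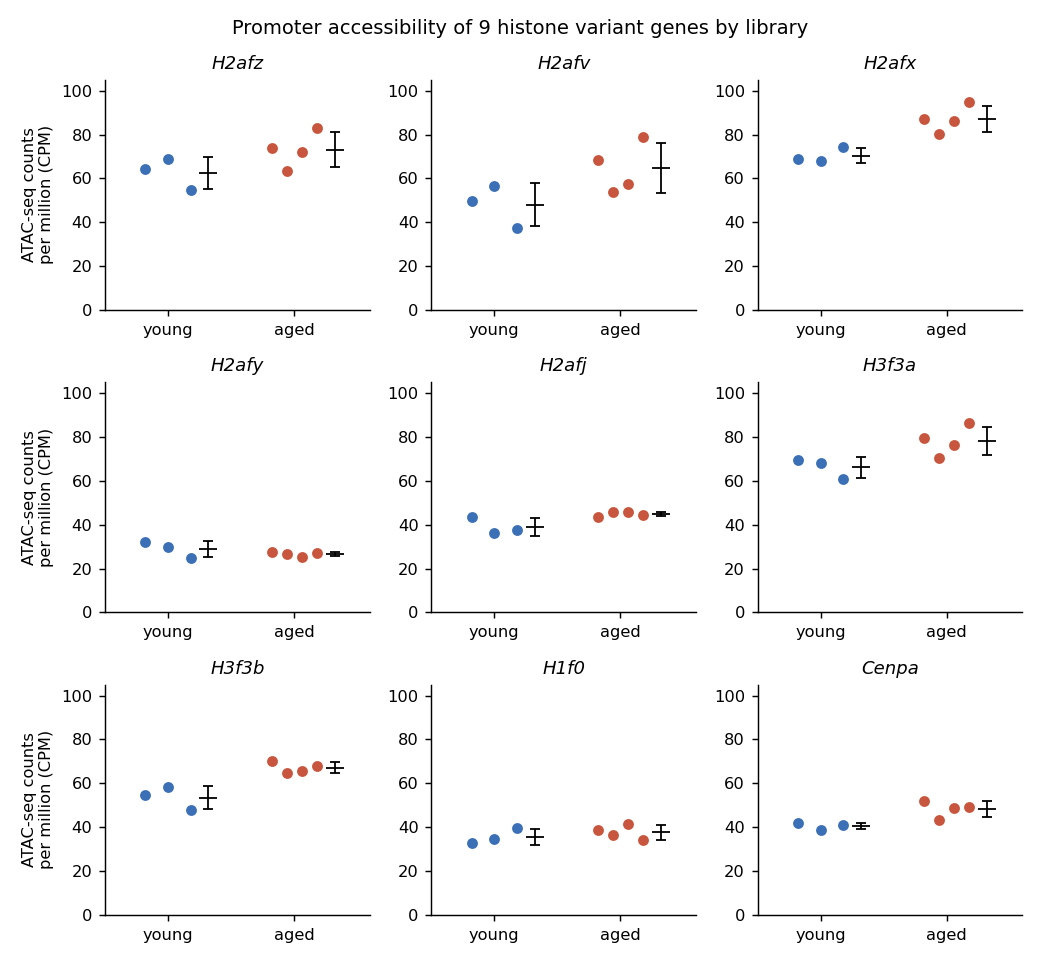
ATAC-seq CPM at the promoter regions of 9 histone variant genes, with 1 point per library (3 young, 4 aged) and the mean ± SD beside them in black. Every aged point lies above every young point at H2afx, H2afj, H3f3a, H3f3b and Cenpa, and the aged points of H2afy lie within the young range.

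The main promoter regions of both H3.3 genes were higher in every aged library than in any young one. The H3f3a promoter (chr1:180812580-180814622), shared with the start of the antisense transcript H3f3aos, gave 69.5, 68.1 and 60.7 CPM in young and 79.5, 70.6, 76.3 and 86.3 CPM in aged libraries. Aged replicate 2 and young replicate 1 were the nearest libraries. The log2 fold change was 0.24 (SE 0.11) with an edgeR adjusted p of 0.196, and it turned to -0.035 with offsets fitted on region strength. At the H3f3b promoter (chr11:116023554-116024810) the values were 54.7, 58.1 and 47.7 CPM in young and 70.3, 64.9, 65.6 and 67.7 CPM in aged libraries. The means of 53.5 ± 5.33 CPM (SD, n = 3) and 67.1 ± 2.42 CPM (SD, n = 4) gave a log2 fold change of 0.32 (SE 0.11), and the edgeR adjusted p of 0.0880 was the lowest of the 9. With offsets fitted on region strength it was 0.077 (adjusted p 0.754).

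H3f3b had a second promoter region at an upstream start (chr11:116027783-116028651). It gave 20.3, 18.3 and 23.3 CPM in young and 15.6, 27.3, 20.1 and 20.4 CPM in aged libraries, with aged values on both sides of the young range and a log2 fold change of 0.0077 (SE 0.18). The upstream region had a GC content of 43.0% and the main one 61.8%. Per kb of region, H3f3b exceeded H3f3a by 1.31 ± 0.0625 times in the young libraries (SD, n = 3) and 1.40 ± 0.0928 times in the aged ones (SD, n = 4). The H3f3b region is 1257 bp wide and that of H3f3a 2043 bp, and in CPM not divided by width H3f3a was the higher in all 7 libraries.

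The promoter region of H1f0 (chr15:79027961-79028899), which also holds a start of Gm49544, gave 32.6, 34.4 and 39.6 CPM in young and 38.6, 36.3, 41.6 and 34.0 CPM in aged libraries. Aged replicate 3 alone exceeded the young range. The log2 fold change was 0.084 (SE 0.12) with an edgeR adjusted p of 0.716, and its sign turned with scaling to total counts and with offsets fitted on region strength.

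The promoter of Cenpa (chr5:30666093-30667221) was separated by age, with 41.8, 38.9 and 40.9 CPM in young and 52.1, 43.3, 48.8 and 49.1 CPM in aged libraries. The means were 40.5 ± 1.53 CPM (SD, n = 3) and 48.3 ± 3.65 CPM (SD, n = 4). The log2 fold change of 0.26 (SE 0.11) had an edgeR adjusted p of 0.167. It passed with offsets fitted on GC content alone (0.36, adjusted p 0.0488) and was 0.058 with offsets fitted on region strength (adjusted p 0.832).

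In signal per kb of region, averaged over the 7 libraries, the order of the promoters was H2afx (49.5 CPM per kb), H3f3b (48.8), H2afj (44.3), H2afv (44.1), Cenpa (39.9), H1f0 (39.1), H2afz (38.1), H3f3a (35.7) and H2afy (20.3). H2afz exceeded H3f3a and H3f3a exceeded H2afy in all 7 libraries. The other neighbours changed places between libraries, from 3 of 7 in order for H2afx over H3f3b to 6 of 7 for H2afv over Cenpa. The per-kb order rests on the called widths. By mean log2 CPM of the whole region, H3f3a (6.19) and H2afz (6.09) came next after H2afx (6.31), and H2afj stood at 5.41. The median of all promoter regions was 20.9 CPM per kb. H2afy lay above 48.4% of promoter regions, H3f3a above 78.6% and H2afx above 91.6%, so that H2afy was the member closest to an average promoter.

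Over the 28 regions, 1 was higher in aged liver (2.44% of all regions were) and 0 were lower (3.3% of all regions were) at an edgeR adjusted p of 0.05. The median log2 fold change was 0.14, with a range from -0.92 to 0.42, against -0.035 over all regions. Without adjustment 11 had a p under 0.05, as did 13699 of the 55680 regions. Every aged library lay above every young one at 9 of the 28 regions, against 10.2% of all regions, and below at 2, against 11.6%. No near-identical copy of any of the 28 was found in GRCm38.

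The region that passed lies at the end of H1f0, where it overlaps the single exon, and covers the promoter of the neighbouring gene Gcat, which encodes a mitochondrial enzyme of threonine breakdown (chr15:79029995-79031206). It gave 58.2, 58.2 and 50.3 CPM in young and 81.5, 68.8, 71.2 and 75.6 CPM in aged libraries. All aged libraries lay above the young ones. The means were 55.6 ± 4.57 CPM (SD, n = 3) and 74.3 ± 5.58 CPM (SD, n = 4), with a log2 fold change of 0.42 (SE 0.11) and an edgeR adjusted p of 0.0431. The call was lost without young replicate 1, 2 or 3 and without aged replicate 1 or 3, and it held in 6 of 20 alternative fits. With those libraries left out singly, 188 to 2651 regions were called in all, against 3198 in the main fit.

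The region 1600 bp before the H1f0 start (chr15:79026398-79027302) had a like difference, with 24.2, 25.4 and 26.8 CPM in young and 32.9, 37.5, 35.0 and 31.3 CPM in aged libraries. The groups did not overlap, and the log2 fold change of 0.42 (SE 0.12) had an edgeR adjusted p of 0.0575. It passed in 5 of 20 alternative fits. The H1f0 promoter between these regions had values that overlapped between ages, as did the regions 5050 bp before the start (log2 fold change -0.015) and 10340 bp after it (0.029).

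H2afv held the largest difference of the opposite sign. An intronic region 7644 bp after its start (chr11:6436433-6436982) gave 6.39, 5.71 and 5.10 CPM in young and 2.64, 4.12, 3.50 and 2.29 CPM in aged libraries. Every aged library lay below every young one, on 15 to 30 counts per aged library, with a log2 fold change of -0.92 (SE 0.27, edgeR adjusted p 0.0586). It passed in 4 of 20 alternative fits. A second intronic region (chr11:6430169-6430607) was also lower in every aged library, with 3.52, 5.37 and 5.75 CPM in young and 3.25, 2.94, 3.50 and 2.29 CPM in aged libraries (log2 fold change -0.71, SE 0.28, edgeR adjusted p 0.140). At 1377 bp after the start, another intronic region went with the promoter in sign (0.24, SE 0.19).

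**Figure D2:**
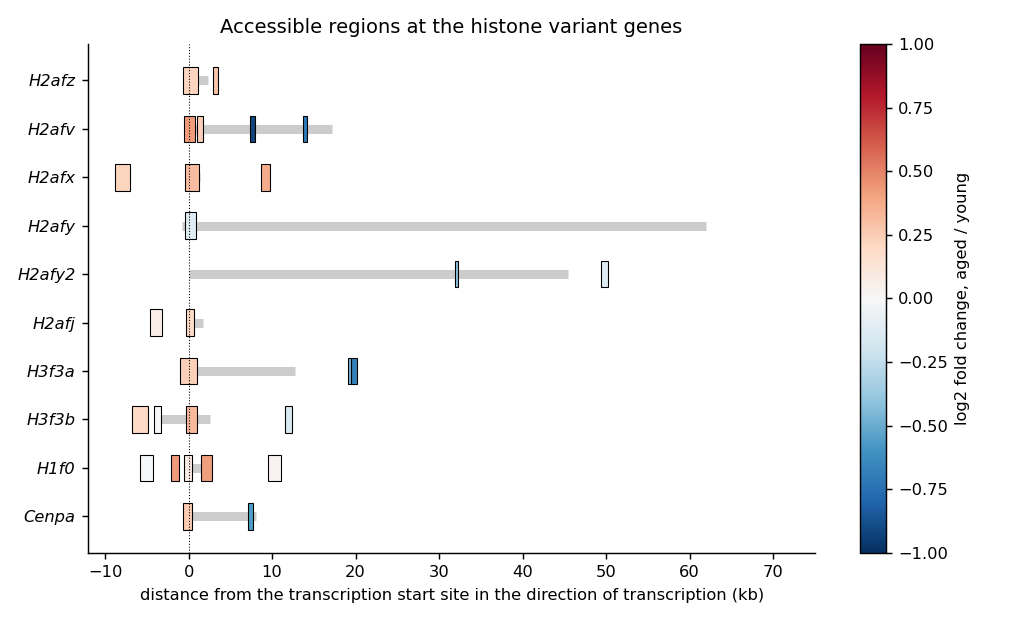
The 28 accessible regions drawn by distance from the transcription start in kb, along the direction of transcription, with gene bodies in grey and region colour giving the log2 fold change of aged over young. The main promoter regions of the variant genes are pale to mid red except at H2afy, and the intronic regions of H2afv at 7644 and 13964 bp are the deepest blue.

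The remaining regions were of both signs. The 10 regions that touched no transcription start had a median of -0.45, and 7 of them were below 0. All 40258 regions outside promoters had a median of -0.091, and 23750 of them were below 0. Among the 7 were the exonic region of Cenpa (-0.57, SE 0.30) and those downstream of H3f3a (-0.67, SE 0.40, and -0.47, SE 0.33), which held as few as 3 and 7 counts. The 8 regions at starts of other genes had a median of 0.21. They included the promoters of Dnajb14 beside H2afz (0.29, SE 0.13) and of Dpagt1 before H2afx (0.22, SE 0.11). Those of Unk and Galk1 beside H3f3b had 0.20 (SE 0.12) and -0.16 (SE 0.18).

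The sign went with the strength of the region. When all regions were ranked by mean log2 CPM into 10 equal groups, the median log2 fold change ran from -0.42 in the weakest to 0.16 and 0.28 in the strongest 2. The 9 main promoters lay in these last 2 groups, 4 and 5 of them. Against promoter regions of the same strength group (medians 0.15 and 0.28), 5 of the 9 were above the median and 4 below it. With offsets fitted on region strength, the median over the 9 promoters was 0.011 and over all promoter regions -0.029.

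**Figure D3:**
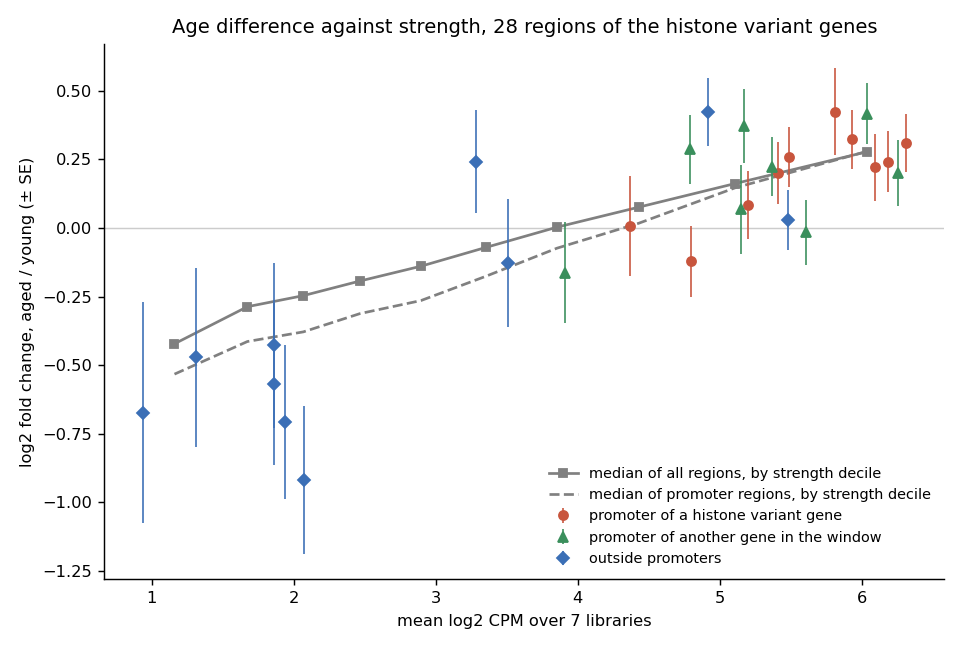
Log2 fold change of aged over young (± SE) against mean log2 CPM over 7 libraries for the 28 regions, coloured by position, with medians of all regions (solid grey) and of promoter regions (dashed grey) in 10 strength groups. The solid line rises from -0.42 to 0.28 and the dashed line from -0.53 to 0.28, and of the 9 main variant promoters 5 lie above the promoter median of their strength group.

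Counts were also summed over all regions of each gene's window. Of the 10 variant genes 0 were higher and 0 lower, against 1.99% and 4.03% of 16231 genes with a region. H2afx came nearest (log2 fold change 0.23, SE 0.073, edgeR adjusted p 0.0757), with 108 ± 1.30 CPM in the young (SD, n = 3) and 126 ± 4.81 CPM in the aged libraries (SD, n = 4), and it passed with DESeq2 (adjusted p 0.0320). H2afy and H2afy2 were the 2 genes below 0, at -0.19 (SE 0.11) and -0.28 (SE 0.19).

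The replication-dependent histone genes gave the contrast. Of 67 genes, 56 had a promoter region, and these shared 37 regions because divergent pairs share a start region. Starts were those of GENCODE M21, which places that of Hist1h1d outside the region over its RefSeq start, so that this gene is not among the 56. Among them 1 was higher and 9 were lower in aged liver (edgeR adjusted p under 0.05), against 0 and 0 among the 9 variant promoters and 4.48% and 2.06% of all promoter regions. The difference between these counts was not tested, and without young replicate 1 the 9 lower regions became 2. That fit called 188 regions in all, against 3198 in the main fit. The 9 lower regions all lay in the first of the chromosome 13 groups (chr13:21715833-21832310), which held 10 regions and had a median of -1.57. These 10 regions lay in strength groups 1 (the weakest) to 6, where the promoter medians ran from -0.53 to -0.18. The 9 variant promoters lay in strength groups 9 and 10, with promoter medians of 0.15 and 0.28, so the sets were not matched for strength. The largest falls were Hist1h4m (-2.22, SE 0.39), Hist1h4n (-2.18, SE 0.27) and Hist1h3i (-1.78, SE 0.39), on 5 to 23 counts per aged library. These falls were known from earlier results of these data. The RefSeq windows of Hist1h4m and Hist1h4n were almost the same sequence, and that of Hist1h4m overlapped none of the deposited regions. Near-identical copies were found for 2 of the 37 regions, 1 of them in the first group. The second and the third groups of chromosome 13 had medians of 0.039 and 0.089, and the 5 regions on chromosome 3 had 0.24, the same as the variant promoters to 2 decimals.

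The 27 replication-dependent regions outside the first group thus had a median of 0.15 and a range from -0.65 to 0.43. The region that was higher covers the starts of Hist1h1e, a linker histone gene, and Hist1h2be (0.43, SE 0.12, edgeR adjusted p 0.0483). No replication-dependent region was higher without young replicate 1 or 2 or without aged replicate 1, 2 or 3. Those fits called 188 to 2898 regions in all, against 3198 in the main fit. H2afj has a replication-dependent neighbour within its own window, Hist4h4 (chr6:136803670-136805194). That promoter gave 31.1, 27.8 and 46.4 CPM in young and 38.4, 35.9, 38.3 and 32.5 CPM in aged libraries. Young replicate 3 lay above all other libraries there and in the middle of the young range at H2afj.

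**Figure D4:**
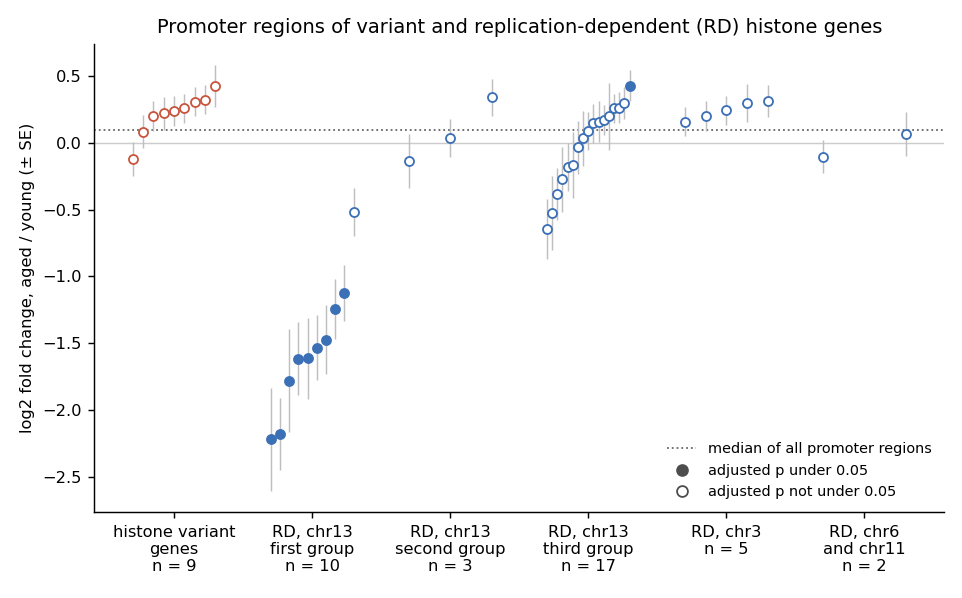
Log2 fold change of aged over young (± SE) at promoter regions of variant histone genes (red) and replication-dependent (RD) histone genes (blue) by genomic place, with filled points at an adjusted p under 0.05 and the all-promoter median of 0.094 dotted. The first chromosome 13 group lies between -2.22 and -0.52, and the variant promoters lie between -0.12 and 0.42.

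Libraries of the same age differed in the balance of variant and replication-dependent promoters. The median log2 CPM over the 9 variant promoters was 5.64, 5.83 and 5.36 in young and 6.10, 5.75, 5.85 and 6.09 in aged libraries. Over the 37 replication-dependent regions it was 4.84, 4.67 and 5.11 in young and 4.82, 5.02, 4.92 and 4.30 in aged libraries. Young replicate 3 thus had the lowest variant and the highest replication-dependent median, and aged replicate 4 had nearly the highest variant and the lowest replication-dependent median. The difference of the medians ranged from 0.25 in young replicate 3 to 1.79 in aged replicate 4 with means of 0.74 ± 0.46 for the young libraries (SD, n = 3) and 1.18 ± 0.46 for the aged ones (SD, n = 4), so the ages overlapped. Over all promoter regions the medians kept to between 4.70 and 4.83. The summed sinusoidal endothelial promoters stood at 65.4, 64.7 and 59.4 CPM in young and 50.7, 48.4, 66.5 and 80.7 CPM in aged libraries. The cholangiocyte promoters stood at 51.2, 43.8 and 52.0 CPM in young and 45.9, 39.4, 40.2 and 56.9 CPM in aged libraries. Aged replicate 4 was highest in both, and the other libraries did not follow the order of the balance. Their part in it was not tested. Without aged replicate 4 the median log2 fold change of the replication-dependent regions was 0.096 in place of -0.032, and without young replicate 3 it was 0.092.

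**Figure D5:**
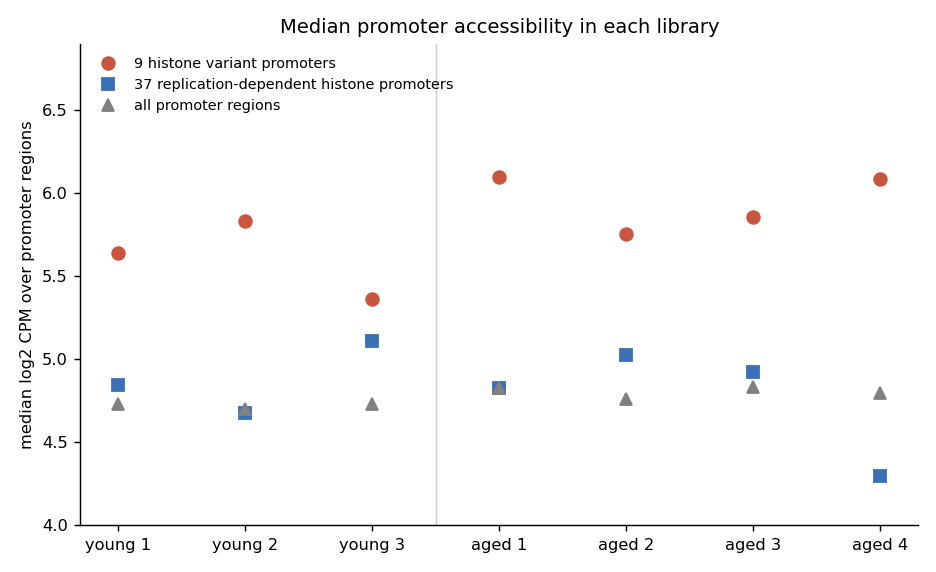
Median log2 CPM in each of 7 libraries over the 9 variant promoters (circles), the 37 replication-dependent histone promoters (squares) and all promoter regions (triangles). The variant and replication-dependent medians are 0.25 apart in young replicate 3 and 1.79 apart in aged replicate 4, and the triangles stay between 4.70 and 4.83.

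The genes that handle these histones were described by the promoters of 4 lists. Over all promoter regions 4.48% were higher, 2.06% were lower and the median was 0.094, or 0.28 in the strongest of the 10 strength groups. The 14 genes of H2A.Z deposition and removal had 0 higher and 0 lower, and a median of 0.28. Nearest to the threshold were Ruvbl1 (0.48, SE 0.15, edgeR adjusted p 0.0710), an ATPase of the SRCAP and INO80 complexes, Actl6a (0.48, SE 0.15, adjusted p 0.0753), an actin-related subunit, and Srcap itself (0.37, SE 0.13, adjusted p 0.0885). The Srcap region also holds a start of 1700008J07Rik. The removal chaperone Anp32e had 0.29 (SE 0.12).

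The 8 genes of H3.3 deposition had a median of 0.13 with 0 higher and 0 lower. The lowest p-values were those of the chaperone Asf1a (0.32, SE 0.11, edgeR adjusted p 0.0825), the HIRA partner Ubn1 (0.22, SE 0.10, adjusted p 0.222) and Daxx (0.24, SE 0.12, adjusted p 0.263). Their regions are shared with starts of Mcm9 (at Asf1a), Glyr1 (at Ubn1) and BC051226 (at Daxx). The 4 genes of CENP-A deposition had a median of 0.033 with 0 higher and 0 lower, and the CENP-A chaperone gene Hjurp (0.22, SE 0.12, adjusted p 0.281) had the lowest p-value. Mis18a, a subunit of the complex that prepares centromeres for CENP-A, had 0.015 (SE 0.15). The Hjurp region also holds a start of Trpm8, and that of Mis18a a start of Gm17518.

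The 12 genes of replication-coupled histone supply had a median of 0.29, with 2 higher and 0 lower. Asf1b, the ASF1 form of dividing cells, rose from a young level of 62.8 ± 14.2 CPM (SD, n = 3) to an aged level of 93.9 ± 11.2 CPM (SD, n = 4), with a log2 fold change of 0.57 (SE 0.15, edgeR adjusted p 0.0424). Lsm10, a subunit of the U7 particle that processes replication-dependent histone RNA, rose from a young level of 25.5 ± 3.59 CPM (SD, n = 3) to an aged level of 35.5 ± 0.733 CPM (SD, n = 4), by 0.47 (SE 0.13, adjusted p 0.0484). Among 21 proliferation genes 1 was higher and 0 lower, with a median of 0.13, beside the same 4.48% and 0.094 of all promoter regions. That gene was Pcna, the sliding clamp of DNA polymerase, at 0.42 (SE 0.11, edgeR adjusted p 0.0402), where all 4 aged libraries lay above the young. The Asf1b region also holds a start of Gm10644, and that of Pcna a start of AV099323.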

How the data were processed

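The ATAC-seq counts were deposited as raw counts for each consensus region and library. Per the study's methods and the submitters' processing notes, the authors trimmed reads with cutadapt 1.13 and aligned them to GRCm38 with Bowtie2 2.4.1. Mitochondrial reads and PCR duplicates were discarded. They called peaks per library with MACS2 2.2.7 and counted reads with featureCounts in peaks found in at least 2 libraries. No replicates were pooled, and 0 columns were left without a sample.

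Regions were assigned to genes and promoters (start ± 200 bp) with GENCODE M21. Aged and young libraries were compared with edgeR 4.0.16 (TMM scaling, quasi-likelihood test, age alone, Benjamini-Hochberg adjustment over all 55680 regions) in R 4.3.3, without a filter on low counts. Values per library are CPM with TMM scaling, and log2 CPM carried a prior count of 2. Alternatives used DESeq2 1.42.0, limma 3.58.1, other scalings, a filter, other windows and reduced sets of libraries. Near-identical copies were sought with minimap2 2.31-r1302, at 80% coverage and 95% identity. The 10 genes and all lists were chosen with earlier results of these data known. The study treats the aged libraries as 4 replicates although they came from 3 animals, and p-values measure the spread between libraries. All 10 members are named, 9 of them with their strongest promoter region and H2afy2, which has none, with its other regions. From the other lists, up to 3 rises and 3 falls past the threshold are named, or else the 3 lowest p-values, and Anp32e was named after its values were seen. Promoter sequences are those of RefSeq (GRCm38.p6). The values of 1 region and of 1 gene that this naming rule picks are not reported here.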

Additional observations from a re-analysis of the deposited data

How the results depend on the processing

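The count of member regions with higher accessibility was 1. It was 3 with DESeq2, 6 with GC offsets, 2 with limma voom, and 0 with abundance offsets, total counts, a filter of 10 counts in every library or a threshold of 0.01. Calls over all regions, in both directions, were 3198 in the main fit, 4691 with DESeq2, 5627 with GC offsets and 4580 with limma voom. They were 697 with abundance offsets, 3474 with total counts and 1327 with the filter. The member count was 0 to 1 when each of the 6 pairs of aged libraries was summed as 1 animal (962 to 4742 calls over all regions). It was 0 to 2 when 1 library was left out (188 to 4230 calls). The count of lower member regions was 0, and 1 (the H2afv intron) with limma voom, total counts, aged replicates 2 and 4 summed, or without aged replicate 2 (range 0 to 1). Replication-dependent histone promoters had 1 higher region, against 4 with GC offsets and 2 under the replicate block or without aged replicate 4. The count was 0 with abundance offsets, total counts, the filter, the threshold of 0.01 or 4 of the 6 summed pairs. Leaving out 1 library gave 0 to 2. Replication-dependent promoters had 9 lower regions, against 2 at the threshold of 0.01 and 2 to 10 leaving out 1 library. The 2 were without young replicate 1, in a fit that called 188 regions in all. Member genes with higher summed accessibility were 0, and 1 with DESeq2 (H2afx) or GC offsets (H2afz). The replication-dependent median of -0.032 was 0.071 with GC offsets, 0.018 with limma voom, 0.13 under the replicate block and 0.022 with aged replicates 1 and 4 summed, and it ran from -0.14 to 0.096 leaving out 1 library. The 0.096 was without aged replicate 4, which the replicate block also leaves out. The median over the 9 variant promoters was 0.24, ran from 0.20 to 0.29 leaving out 1 library, and was 0.12 with total counts and 0.011 with abundance offsets. Reversed signs were -0.045 at H2afz, -0.035 at H3f3a and -0.083 at H1f0 with abundance offsets, and -0.035 at H1f0 with total counts, which moved the median of all regions from -0.035 to -0.15. The cause was not tested. Deviations of same-numbered young and aged libraries had r of -0.013, 0.042 and -0.035, against -0.050 to 0.061 between libraries of other numbers. These correlations cannot tell whether same-numbered libraries were prepared together, and the main fit used no pairing. The replicate block, a term for replicate number, was fitted without aged replicate 4. It called 4152 regions in all, against 4230 without aged replicate 4 and without the block. Without aged replicate 4 and without the block, the Gcat promoter at H1f0 passed (edgeR adjusted p 0.0486). So did the region 1600 bp before the H1f0 start (log2 fold change 0.47, adjusted p 0.0429). With the block the Gcat promoter lost its call, and the region before the start kept its own (0.47, adjusted p 0.0474). Counts of 3 to 30 at the weakest regions limit what can be shown there, and 4 aged libraries from 3 animals limit every comparison.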
